A study of Homo sapiens with 6 samples.

Results

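Replacement histone variants are the histones that can be put into chromatin outside S phase, and their transcripts were followed here in HT29 cells, a line derived from a human colorectal adenocarcinoma. The members were the genes whose Ensembl identifiers in the deposited tables carry 1 of 9 symbols in GENCODE release 44: H3-3A and H3-3B, H2AZ1 and H2AZ2, H2AX, H2AJ, MACROH2A1 and MACROH2A2, and H1-10. All 9 were found among the 60676 genes listed. HT29 cells, labelled wild type, were kept for 48 h in control medium (untreated), in histidine-depleted medium (-H) or in tryptophan-depleted medium (-W), with 2 RNA-seq libraries per group and 6 in all. The question the design puts to these genes is whether their transcripts change when 1 amino acid is withdrawn, and whether the change depends on which amino acid is missing. Histidine-free medium was prepared on an RPMI base and tryptophan-free medium on a DMEM F-12 base, both with dialyzed serum. The base and the serum of the control medium are not named for the RNA-seq. A difference in base medium or serum and the missing amino acid therefore cannot be told apart. Neither the labels nor the methods say that the paired libraries came from separate cultures, so the p-values cannot be taken to measure the spread between cultures. In limma they rest on the spread between these libraries, with each gene's variance drawn towards a trend over all genes tested. A very small p-value therefore does not reflect the spread of that gene alone. The trend was fitted apart for each comparison, so p-values are not to be compared in size between -H and -W.

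A nucleosome wraps DNA around a core of H2A, H2B, H3 and H4, and the bulk of these proteins is made in S phase from replication-dependent genes whose mRNAs normally end in a stem-loop and lack a poly(A) tail. Replacement variants are encoded by single genes outside those clusters, mostly with polyadenylated mRNAs, and can be deposited throughout the cell cycle. H3.3 and H2A.Z have chaperones or exchange complexes of their own. H3.3 marks active genes and is also placed at telomeres and pericentric repeats. H2A.Z flanks transcription start sites, H2AX is phosphorylated around DNA breaks, the macroH2A proteins carry a large globular domain and are found in silent chromatin, and H1-10 (H1.10, formerly H1x) is a linker histone that binds where DNA enters and leaves the nucleosome.

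The libraries held between 46390819 and 64388876 reads. The 10 colorectal epithelial markers summed to 429260 normalized counts in the lowest library, and all had reads in untreated cells, but CDX1, at 21.6 and 18.8 there, was at 0 in both -H libraries. Of these markers 4 were higher and 6 lower in -H, and 5 were higher and 2 lower in -W cells. Over all genes tested, 39.1% were higher and 38.2% lower in -H, and 36.1% were higher and 34.8% lower in -W cells. CDX1, among the lower in both, passed the filter on low counts only through the untreated libraries. CEACAM5 fell by 2.61 on the log2 scale in -H and rose by 3.92 in -W cells, and KRT20 rose by 1.74 and 2.38. Their part in the changes of the variants was not tested. By comparison, 6 fibroblast markers together stayed between 35.2 and 76.5 and 4 endothelial markers between 26.6 and 55.7. The 8 leukocyte and mast cell markers summed to 118 to 141 in untreated, 55.1 to 65.1 in -H and 369 to 384 in -W libraries, with 3 of the 8 at 0 in all libraries and 6 at or under 3 reads. Of 17 proliferation genes tested, 12 were lower and 1 was higher in -H cells, where 38.2% of all genes tested were lower and 39.1% higher. Their median log2 fold change was -1.004, beside 0.01 over all genes. All 17 were lower in -W cells, where 34.8% of all genes tested were lower. Their median there was -2.64, beside 0.01 over all genes. PCNA, the replication clamp, fell by 1.00 on the log2 scale in -H and by 2.62 in -W cells. The part of cycling cells in the changes of the variants was not tested. In bulk RNA, fewer cells of a kind and less RNA per cell cannot be told apart.

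H3.3 is encoded by H3-3A and H3-3B, which lie on different chromosomes and give the same protein. Their coding sequences have the same length of 411 bases and differ at 88 of them, and all 79 of the 137 codons that differ still code for the same residue. The first 90 coding bases of the canonical transcripts (GENCODE release 44, GRCh38) are shown as an example of how the genes differ. The 21 bases that differ within this stretch are in capitals.
H3-3A: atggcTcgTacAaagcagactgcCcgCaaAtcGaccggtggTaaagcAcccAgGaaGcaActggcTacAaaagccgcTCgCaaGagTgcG
H3-3B: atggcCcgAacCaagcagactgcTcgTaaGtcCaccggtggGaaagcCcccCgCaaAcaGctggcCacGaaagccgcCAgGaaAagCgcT
H2AZ1 and H2AZ2 likewise encode nearly the same H2A.Z protein, with 76 of 387 coding bases but only 3 residues different. Their first 90 coding bases differ at 19 positions, in capitals.
H2AZ1: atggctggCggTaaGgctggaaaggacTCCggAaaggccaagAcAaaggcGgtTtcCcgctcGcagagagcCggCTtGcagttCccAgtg
H2AZ2: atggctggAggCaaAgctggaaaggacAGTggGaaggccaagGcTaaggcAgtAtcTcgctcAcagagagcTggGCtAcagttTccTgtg

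H3-3B gave the largest increase of any member in -H cells, and the other gene for the same protein did not follow it. H3-3B (GRCh38 chr17:75776434-75785893, minus strand, 4 exons in the canonical transcript) stood at 27289 and 29696 normalized counts in the untreated libraries, at 61304 and 62923 in -H and at 22527 and 22700 in -W. All these counts are reads divided by size factors common to the 6 libraries. Both -H libraries lay above every other library by a wide margin, both -W libraries lay below untreated cells, and no groups overlapped. H3-3B rose 2.20-fold in -H cells (log2 fold change 1.13 ± 0.0593 SE, limma adjusted p = 9.92e-15) and fell by 0.34 on the log2 scale in -W cells (limma adjusted p = 1.57e-09). Under quantile normalization the increase was 0.81 on the log2 scale, the smallest among its alternatives. UNK, on the opposite strand over 2.92% of the exons of H3-3B, held 1241 to 1660 normalized counts.

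H3-3A (chr1:226061851-226072019, plus strand, 4 exons) stood at 16286 and 17219 normalized counts in untreated, at 16749 and 17599 in -H and at 10495 and 10165 in -W libraries. The -H libraries overlapped the untreated ones, and both -W libraries lay well below. The log2 fold change was 0.045 in -H cells (95% confidence interval -0.064 to 0.154, limma adjusted p = 0.441), which became a decrease of 0.22 under quantile normalization (adjusted p = 7.47e-05). In -W cells H3-3A fell by 0.70 on the log2 scale (limma adjusted p = 1.89e-29), a level 38.6% lower. Counts for 6 pseudogenes are listed apart. These copies, at least 95% identical to H3-3A over 100 bases or more, held reads amounting to 27.4% to 29.7% of those of H3-3A, a share that was much alike in all 6 libraries. The values of H3-3A are uncertain by the reads that could be assigned to either.

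The shift between the paralogs was set out per length, as the share of H3-3B in the length-scaled abundance (TPM) of the pair, using the merged exonic length of each gene. H3-3B took 51.5% ± 0.51 (SD, n = 2) of the pair in untreated, 69.3% ± 0.35 in -H and 57.7% ± 0.68 in -W cells. The ratio of H3-3B to H3-3A was 2.13-fold higher in -H and 1.29-fold higher in -W than in untreated cells, and the libraries of the 3 groups did not overlap. An exact two-sided permutation test over 2 libraries against 2 gave p = 0.333 for each of these comparisons, the smallest that this design allows. The level of the shares depends on the length given to each gene, and with the canonical transcript they were 40.2%, 58.9% and 46.4% in the same order of groups. The summed H3.3 transcripts were 665 ± 33.4 TPM in untreated, 1010 ± 25.3 in -H and 455 ± 3.46 in -W cells. With canonical lengths these sums were 1092 ± 35.0, 1526 ± 31.3 and 739 ± 6.16 TPM.

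**Figure D1:**
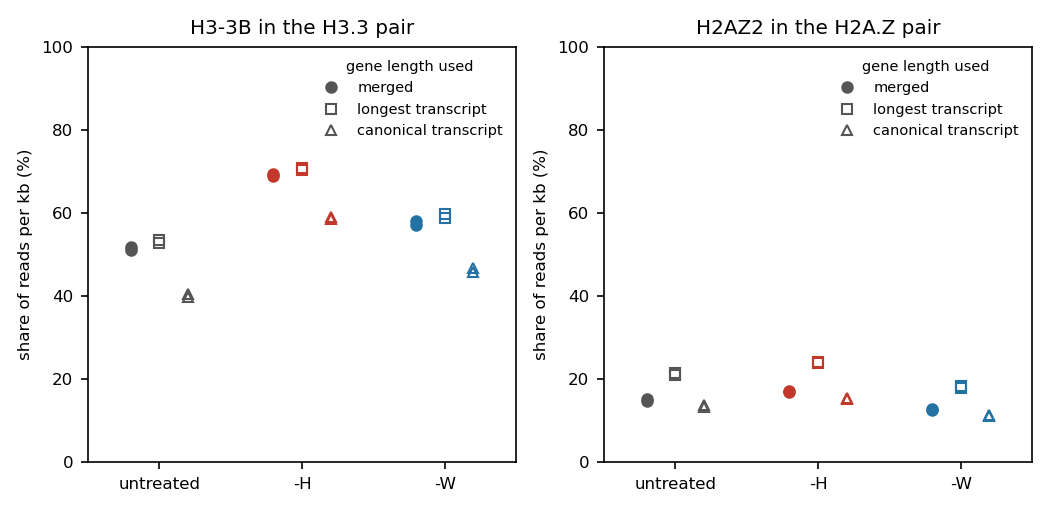
Share of H3-3B in the H3.3 pair (left) and of H2AZ2 in the H2A.Z pair (right) of reads per kb of gene, in percent, with 1 point per library and 2 libraries per group; filled circles use the merged exonic length, squares the longest and triangles the canonical transcript. The H3-3B share is highest in -H (69.3% with the merged length), and the H2AZ2 share is highest in -H and lowest in -W. A change of length scales the ratio of a pair alike in every library, so the order of the groups is the same by construction.

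Both H2A.Z genes fell in -W cells, while in -H cells H2AZ1 fell less and H2AZ2 did not pass the test. H2AZ1 (chr4:99948086-99950355, minus strand, 5 exons), the more abundant gene, stood at 15680 and 16543 normalized counts in untreated, at 13544 and 13798 in -H and at 8789 and 8523 in -W libraries. The 3 groups did not overlap and descended in that order. H2AZ1 fell by 0.23 on the log2 scale in -H cells (limma adjusted p = 0.000312) and by 0.90 in -W cells (limma adjusted p = 1.61e-39), where its level was 46.5% lower. In -H cells its log2 fold change ranged from -0.493 to -0.186 over its alternatives. H2AZ2 (chr7:44826791-44848087, minus strand, 5 exons) stood at 8710 and 8895 in untreated, at 8692 and 8741 in -H and at 3874 and 3869 in -W libraries. Untreated and -H libraries overlapped, with a log2 fold change of -0.0051 (95% confidence interval -0.106 to 0.096, limma adjusted p = 0.929), which was 0.013 without untreated replicate 2 and a called decrease of 0.25 under quantile normalization. In -W cells H2AZ2 fell by 1.19 on the log2 scale (limma adjusted p = 1.39e-52). Per length, H2AZ2 took 15.1% ± 0.29 of the H2A.Z pair in untreated, 17.1% ± 0.13 in -H and 12.7% ± 0.23 in -W cells, with no overlap between groups (exact permutation p = 0.333, the smallest possible). H2A.Z transcripts of both genes summed to 616 ± 21.4 TPM in untreated, 502 ± 6.60 in -H and 311 ± 6.29 in -W cells. With canonical lengths these sums were 897 ± 17.2, 730 ± 5.12 and 462 ± 8.36 TPM. TPM and normalized counts are scaled differently between libraries. Thus H2AZ2 stood at 92.6 TPM in untreated and 86.0 in -H cells, although its normalized counts overlapped.

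H2AX moved in opposite directions in the 2 depletions. H2AX (chr11:119093874-119095465, minus strand, 1 exon) gives both a stem-loop and a polyadenylated mRNA, and these poly(A)-selected libraries address the latter. It stood at 3643 and 4023 normalized counts in untreated, at 5110 and 5300 in -H and at 1267 and 1355 in -W libraries, so that every -H library lay above and every -W library below the untreated ones. H2AX rose 1.37-fold in -H cells (log2 fold change 0.45 ± 0.0546 SE, limma adjusted p = 5.97e-08) and fell by 1.55 on the log2 scale in -W cells (SE 0.0531, limma adjusted p = 2.62e-59), a level 65.9% lower and the largest decrease of the 9 in -W cells. In the direct comparison of the depleted groups it was 3.97-fold higher in -H than in -W cells.

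H2AJ (chr12:14774405-14778002, plus strand, 1 exon in the canonical transcript), an H2A variant with a distinct C terminus that accumulates in some senescent cells, was the only member called higher in both depletions. It stood at 1186 and 1367 normalized counts in untreated, at 1872 and 2067 in -H and at 1644 and 1587 in -W libraries. The lowest depleted library lay above the highest untreated one. H2AJ rose 1.55-fold in -H (limma adjusted p = 8.42e-09) and 1.26-fold in -W cells (limma adjusted p = 1.69e-07).

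H1-10 (chr3:129314771-129316286, minus strand, 1 exon) gave the largest decrease of the members by fold change in -H cells. It stood at 1566 and 1885 normalized counts in untreated, at 690.3 and 800.8 in -H and at 1356 and 1326 in -W libraries. The untreated libraries spread more widely than those of the other groups, and no groups overlapped. H1-10 fell by 1.20 on the log2 scale in -H cells (SE 0.0805, limma adjusted p = 1.33e-12), a level 56.4% lower, and by 0.36 in -W cells (limma adjusted p = 1.71e-08). In -W cells the log2 fold change of H1-10 ranged from -0.498 to -0.231 over its alternatives. Its sole annotated overlap is with the antisense gene H1-10-AS1, which held between 5.3 and 29.5 normalized counts per library.

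The macroH2A pair was carried almost entirely by MACROH2A1 (chr5:135334381-135399914, minus strand, 9 exons in the canonical transcript). It stood at 17236 and 17301 normalized counts in untreated, at 18025 and 18151 in -H and at 15604 and 15310 in -W libraries. The groups were close but did not overlap. The log2 fold change in -H cells was 0.076 (95% confidence interval -0.028 to 0.180, limma adjusted p = 0.172), which turned to a called decrease of 0.19 under quantile normalization and a called increase of 0.081 without untreated replicate 2 (adjusted p = 0.0493). In -W cells MACROH2A1 fell by 0.17 on the log2 scale (limma adjusted p = 0.00113), and this call was lost without -W replicate 1 (adjusted p = 0.0951) or -W replicate 2 (adjusted p = 0.132). The antisense PITX1-AS1, with 49.9 to 107.8 normalized counts, and 1 unnamed gene cover 28.6% of its exons. Gene counts do not resolve the macroH2A1.1 and macroH2A1.2 isoforms, which arise by exchange of 1 exon. QKI, a splicing regulator of that exon, is listed at 0. How that 0 arose was not tested, and it is not read as absence of the transcript.

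MACROH2A2 (chr10:70052544-70112282, plus strand, 9 exons) was near the lower limit of the data, with 13 and 16 reads in untreated, 30 and 25 in -H and 23 and 15 in -W libraries. In normalized counts, the -H libraries (27.1 and 25.4) lay above the untreated ones (14.2 and 15.9), and the -W libraries (24.5 and 13.7) spanned them. It rose in -H cells (log2 fold change 0.77 ± 0.326 SE, limma adjusted p = 0.0350), and this call was lost with DESeq2 (adjusted p = 0.229), with no filter on low counts, with quantile normalization, and without untreated replicate 1 (adjusted p = 0.0865), -H replicate 1 (0.125) or -H replicate 2 (0.0783). In -W cells the log2 fold change was 0.27 (95% confidence interval -0.481 to 1.02, limma adjusted p = 0.536), and -0.12 without -W replicate 1. Part of its exons (6.58%) lies opposite AIFM2, which held 2316 to 4105 normalized counts, and the methods do not state whether strand was used in counting.

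**Figure D2:**
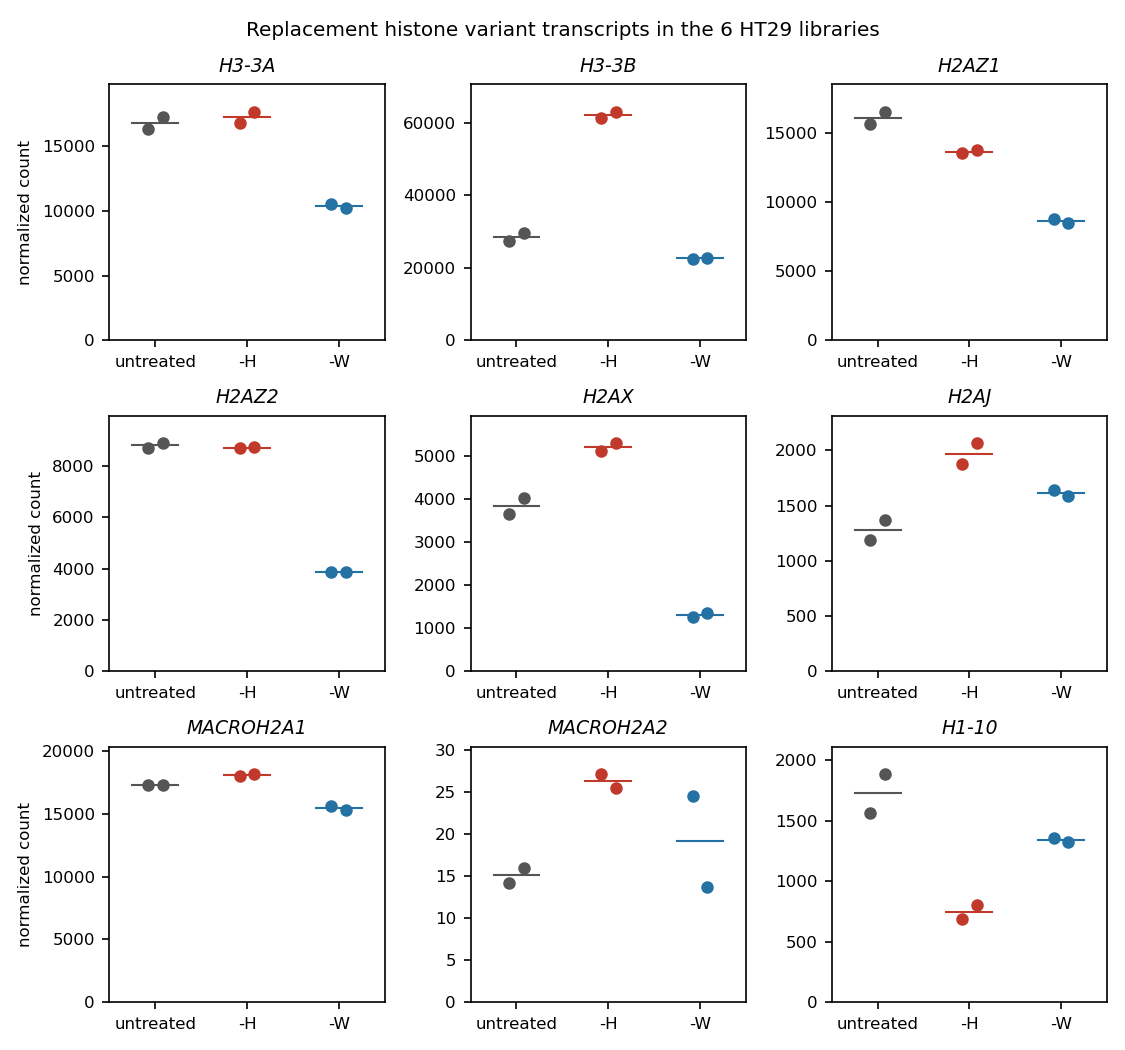
Normalized counts (reads divided by size factors common to the 6 libraries) of the 9 members on linear axes from 0, with 1 point per library and the group mean as a line, n = 2 per group. By fold change, H3-3B is the member most raised in -H (61304 and 62923 against 27289 and 29696) and H1-10 the member most lowered there. H2AX and H2AZ2 fall furthest by fold change in -W.

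Counted over the list, 4 members were higher (H2AX, H2AJ, H3-3B, MACROH2A2), 2 were lower (H1-10, H2AZ1) and 3 did not pass the test in -H cells, where 77.3% of all 18288 genes tested were called, 39.1% as higher and 38.2% as lower. In -W cells 1 member was higher (H2AJ), 7 were lower and 1 did not pass, where 70.8% of 17960 genes were called, 36.1% as higher and 34.8% as lower. Most genes in these tables were called, and 6 of 9 or 8 of 9 members called is read against those shares as no result about the members. With the fold change also limited to 1 or more on the log2 scale in either direction, the calls were H3-3B higher and H1-10 lower in -H cells (32.5% of all genes) and H2AX and H2AZ2 lower in -W cells (20.5% of all genes). The median log2 fold change of the 9 was 0.08 in -H and -0.36 in -W cells, beside a median of 0.01 over all genes in both. Under quantile normalization 5 members instead of 2 were lower in -H cells, with H3-3A, H2AZ2 and MACROH2A1 added.

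The depleted groups were also compared with each other directly. Of the 9 members 7 were higher in -H than in -W cells, only H1-10 was lower and MACROH2A2 did not pass. Of 18264 genes tested 76.7% were called, 38.7% as higher and 38% as lower. MACROH2A2 had a log2 difference of 0.49 (limma adjusted p = 0.197), which ranged from 0.094 to 0.887 over its alternatives. The log2 difference was 1.99 ± 0.0522 (SE) for H2AX (limma adjusted p = 1.00e-15), 1.46 ± 0.0445 for H3-3B (limma adjusted p = 6.24e-15) and 1.17 ± 0.0379 for H2AZ2 (limma adjusted p = 1.32e-14), the 3 members past a log2 difference of 1, a limit that 31.7% of all genes passed. H3-3A (0.73), H2AZ1 (0.66), H2AJ (0.28) and MACROH2A1 (0.23) followed, and H1-10 was lower by 0.85 on the log2 scale (limma adjusted p = 2.74e-08). The difference of MACROH2A1 ranged from 0.079 to 0.241 over its alternatives. All 17 proliferation genes were also higher in -H than in -W cells, with a median of 1.81, and their part in the difference of the variants was not tested.

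**Figure D3:**
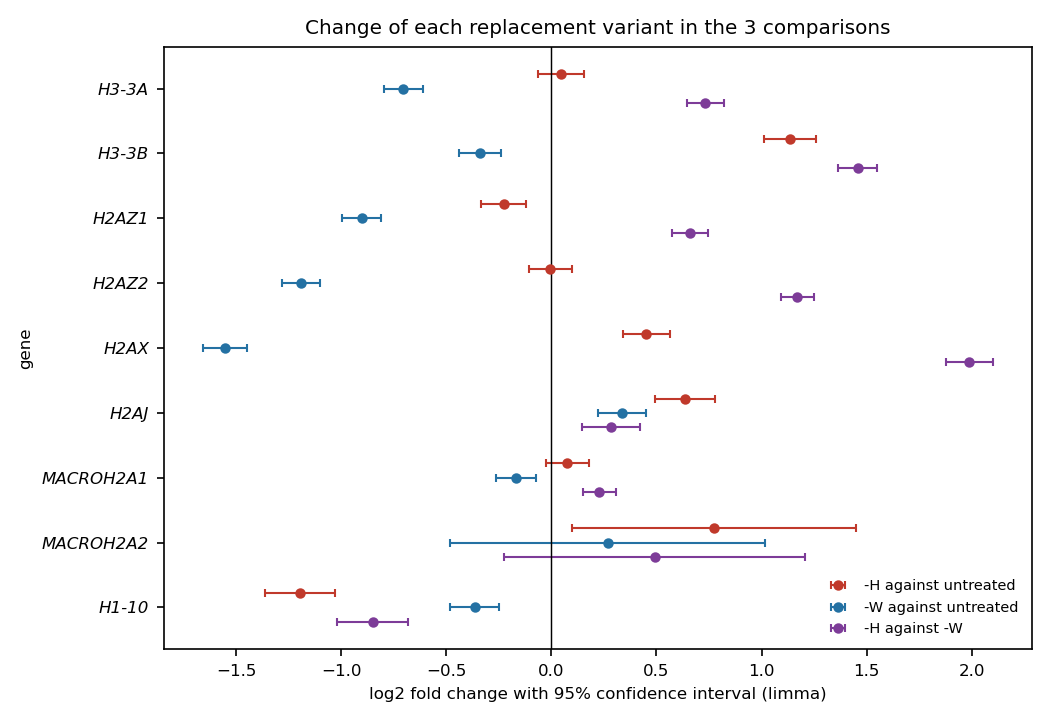
Log2 fold change of each member with its 95% confidence interval (limma, n = 2 libraries per group) for -H against untreated, -W against untreated and -H against -W. H2AX and H3-3B lie on opposite sides of 0 in the 2 depletions (0.45 and -1.55, 1.13 and -0.34), H1-10 lies below 0 in all 3 comparisons, and the intervals of H3-3A, H2AZ2 and MACROH2A1 cross 0 in -H, where quantile normalization places all 3 below 0.

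Per length, H2AZ1 was the most abundant member in untreated cells at 523 ± 20 TPM (SD, n = 2). H3-3B at 342.3 ± 20.6 and H3-3A at 323 ± 12.8 TPM followed, and their libraries overlapped. H2AX stood at 177 ± 12.5 TPM. H2AZ2 at 92.6 ± 1.41 and H1-10 at 83.9 ± 10.98 TPM did not differ beyond their spread, and MACROH2A1 at 74.8 ± 0.229, H2AJ at 28.2 ± 2.84 and MACROH2A2 at 0.074 ± 0.0060 TPM came last. In -H cells H3-3B stood first at 699.7 ± 14.0 TPM and H1-10 at 34.0 ± 3.61 TPM stood behind H2AJ at 40.8 ± 2.92. In -W cells H2AX at 58.7 ± 2.73 TPM stood behind MACROH2A1 and H1-10. The order within a group depends on the lengths: with canonical transcripts, MACROH2A1 in untreated cells stood at 376 ± 4.85 TPM, above H2AZ2, H2AX, H2AJ and H1-10, and H3-3A came before H3-3B.

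The promoters of the 4 members that passed a log2 fold change of 1 against untreated cells (H3-3B, H1-10, H2AX and H2AZ2) are shown so that their elements can be compared, with H3-3A as the paralog of H3-3B, 250 bases before to 49 after the first base of the RefSeq transcript (GRCh38.p14), 5′ to 3′ on the strand of the gene, with capitals on the CCAAT box (CCAAT), the TATA box (TATAAA) and the cell cycle homology region (TTTGAA), each searched on both strands. The windows are H3-3B at chr17:75779730-75780029, H3-3A at chr1:226062466-226062765 (the last of 4 RefSeq start sites), H2AX at chr11:119095416-119095715, H2AZ2 at chr7:44848038-44848337 and H1-10 at chr3:129316237-129316536.
H3-3B: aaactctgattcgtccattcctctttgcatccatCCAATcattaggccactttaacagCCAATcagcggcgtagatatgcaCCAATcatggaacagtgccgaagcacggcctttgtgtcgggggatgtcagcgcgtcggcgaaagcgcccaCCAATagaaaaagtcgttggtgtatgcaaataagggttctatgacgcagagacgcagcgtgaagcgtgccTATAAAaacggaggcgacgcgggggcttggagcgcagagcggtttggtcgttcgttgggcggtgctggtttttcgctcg
H3-3A: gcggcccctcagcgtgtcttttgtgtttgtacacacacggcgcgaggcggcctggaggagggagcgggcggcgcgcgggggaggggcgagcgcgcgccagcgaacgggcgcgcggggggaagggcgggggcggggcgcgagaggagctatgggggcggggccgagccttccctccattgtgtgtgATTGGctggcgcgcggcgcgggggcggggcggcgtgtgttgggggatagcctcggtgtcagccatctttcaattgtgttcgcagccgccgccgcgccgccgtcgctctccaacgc
H2AX: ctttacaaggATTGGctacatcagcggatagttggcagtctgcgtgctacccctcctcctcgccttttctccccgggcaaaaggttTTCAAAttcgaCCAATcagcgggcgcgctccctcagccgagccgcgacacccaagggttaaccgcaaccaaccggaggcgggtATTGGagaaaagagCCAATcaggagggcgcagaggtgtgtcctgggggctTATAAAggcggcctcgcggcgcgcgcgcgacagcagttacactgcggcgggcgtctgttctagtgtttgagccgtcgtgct
H2AZ2: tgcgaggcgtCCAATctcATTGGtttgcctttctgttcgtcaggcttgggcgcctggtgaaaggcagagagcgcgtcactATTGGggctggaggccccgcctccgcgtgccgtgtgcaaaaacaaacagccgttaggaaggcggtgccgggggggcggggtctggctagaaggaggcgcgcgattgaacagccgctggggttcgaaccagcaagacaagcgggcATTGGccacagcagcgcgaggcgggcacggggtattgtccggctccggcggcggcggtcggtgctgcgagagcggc
H1-10: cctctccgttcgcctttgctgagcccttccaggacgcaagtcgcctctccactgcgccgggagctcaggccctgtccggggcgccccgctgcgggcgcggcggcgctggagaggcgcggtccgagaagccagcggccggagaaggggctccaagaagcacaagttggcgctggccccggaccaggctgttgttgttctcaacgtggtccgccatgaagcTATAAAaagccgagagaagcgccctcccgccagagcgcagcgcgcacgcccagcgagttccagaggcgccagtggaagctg
H3-3B held 4 CCAAT boxes and a TATA box starting at -29, where the H3-3A window held 1 CCAAT box and no TATAAA. H2AX held 4 CCAAT boxes, a TATA box at -31 and the cell cycle homology letters in reverse at -164. H2AZ2 held 4 CCAAT boxes and no TATAAA, and H1-10 held the TATA box at -31 alone. TATAAA also stood at -31 of H2AZ1. Of 34796 RefSeq promoter windows, 34.6% held CCAAT, 11.6% TATAAA and 15.2% TTTGAA. The letters of a cAMP response element (TGACGTCA), of E2F sites (TTTCCCGC or TTTGGCGC) and of an ATF4 composite site (TGATGNAA) were in none of the members' windows, and 1.84%, 2.27% and 3.63% of all windows held them. A match is a run of letters and not a measured site.

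Codons for the missing amino acids differ in number between the members. Histidine codons number 6 in H2AZ1 and H2AZ2 (4.69% of codons), 3 in H2AX (2.10%), 2 in H3-3A and H3-3B (1.47%), 2 in H2AJ (1.55%), 2 in H1-10 (0.939%), 6 in MACROH2A1 (1.61%) and 7 in MACROH2A2 (1.88%), beside a median of 2.43% over 19623 coding sequences, which the H2A.Z genes exceed and the other 7 members do not reach. Tryptophan codons are absent from all members but H1-10, MACROH2A1 and MACROH2A2, which have 1 each. Of all coding sequences, 6.84% have none. H3-3A uses CAT for both of its histidines and H3-3B uses CAC and CAT once each.

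Counts over the lists of partner genes that follow are to be read beside the shares over all genes tested, which were 39.1% higher and 38.2% lower in -H cells and 36.1% higher and 34.8% lower in -W cells. Among the factors that handle H3.3, of 8 tested, 3 were higher and 4 lower in -H cells, with a median log2 fold change of -0.036, and 2 were higher and 5 lower in -W cells, with a median of -0.23. DEK, among the 3, stood at 0.18 on the log2 scale in -H cells, and its call was lost without -H replicate 1 (limma adjusted p = 0.0956) or -H replicate 2 (0.119) and turned to a called decrease of 0.089 under quantile normalization. ASF1A, the H3-H4 chaperone that hands H3.3 to the HIRA complex, fell by 2.02 on the log2 scale in -H cells (limma adjusted p = 3.99e-16), while in -W cells its value was -0.097 (limma adjusted p = 0.162), and the direct difference between the depletions was -1.94. HIRA itself fell by 0.44 in -H and by 0.97 in -W cells. UBN1, its DNA-binding partner, rose by 0.68 and 0.58. DAXX, which with ATRX deposits H3.3 at repeats, fell by 0.13 and 0.46.

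Of 25 tested genes of the complexes that exchange H2A.Z, 11 were higher and 8 lower in -H cells (median 0.044), and 4 were higher and 13 lower in -W cells (median -0.12). VPS72, the subunit of the SRCAP and TIP60 complexes that binds H2A.Z, rose by 1.06 on the log2 scale in -H cells and fell by 0.12 in -W cells. EPC2 of the TIP60 complex rose by 1.37 in -H cells, and TRRAP, its large scaffold, fell by 1.46 there and by 0.38 in -W cells. ANP32E, which removes H2A.Z from nucleosomes, fell by 0.44 and 0.94. The ATPases SRCAP and EP400 did not pass the test in -H cells, with values of 0.029 and -0.078, and each changed sign when a library was left out. Without untreated replicate 1, EP400 was called lower by 0.18 on the log2 scale (limma adjusted p = 0.0031).

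Of 16 tested genes that signal from or act on H2AX, 8 were higher and 6 lower in -H cells (median 0.13), where EYA1, among the higher, passed the filter on low counts only through the -H libraries, and of 15 tested in -W cells 5 were higher and 7 lower (median -0.097). MDC1, the reader of phosphorylated H2AX, rose by 0.21 on the log2 scale in -H and fell by 1.48 in -W cells. MRE11, the nuclease of the break sensor, fell by 1.29 and 1.20. PPP2CA, a phosphatase subunit, rose by 0.80 and 0.13. Among 8 general H2A-H2B chaperones and macroH2A partners, 2 were higher and 3 lower in -H cells (median -0.034) and 7 lower with none higher in -W cells (median -0.46). PARP1, which binds the macroH2A1.1 domain through the ADP-ribose it makes, fell by 1.89 and 2.30.

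The chaperones that serve replication and the centromere were lower throughout, with all 11 tested called lower in -H (median -1.30) and in -W cells (median -2.07). CHAF1B of the CAF-1 complex fell by 1.91 and 3.04 on the log2 scale and ASF1B by 1.30 and 2.80. CENPA, the centromeric H3, fell by 0.78 on the log2 scale in -H and by 2.13 in -W cells. H3-5, a copy of H3-3B at least 95% identical over 100 bases or more, rose by 0.88 and fell by 0.46, and its reads amounted to 0.888% to 1.11% of those of H3-3B.

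Polyadenylated transcripts of replication-dependent histones, whose mRNAs normally lack a poly(A) tail, were mostly higher in both depletions. Of 67 in the tables, 27 reached 10 normalized counts in untreated cells, and of these 27 were higher in -H and 19 in -W cells, with none lower. H4C8 had 39.9 ± 3.28 normalized counts (SD, n = 2) in untreated and 2595 ± 2.39 in -H libraries. Of 7 tested factors of their mRNAs, 4 were higher and 2 lower in -H cells (median 0.23), and 2 were higher and 5 lower in -W cells (median -0.28). ERI1, an exonuclease that binds the stem-loop, rose by 0.73 on the log2 scale in -H and fell by 0.25 in -W cells. SLBP, the stem-loop binding protein, fell by 0.22 on the log2 scale in -H and by 0.70 in -W cells.

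**Figure D4:**
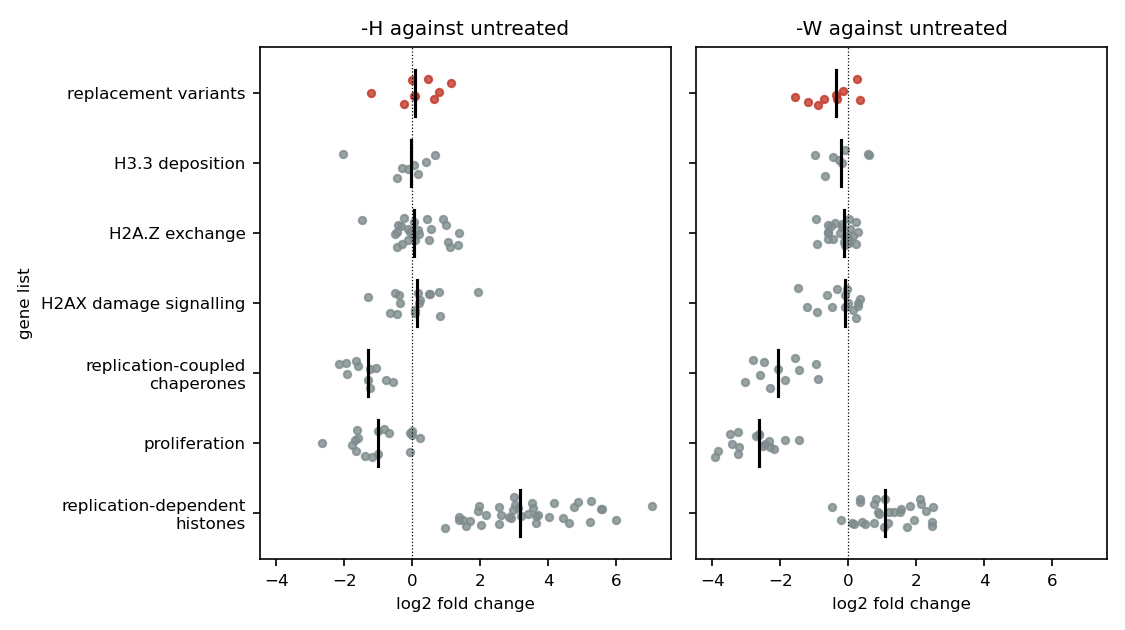
Log2 fold change of every tested gene of 7 lists in -H against untreated (left) and -W against untreated (right), 1 point per gene and the list's median as a line; genes are scattered vertically for legibility. The replacement variants (red) lie around 0 in -H (median 0.08) and mostly below it in -W (median -0.36), the replication-coupled chaperones lie below 0 in both, and the replication-dependent histones, some of which passed the filter only through the depleted libraries, lie above 0 in -H.

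Genes with the pattern most like that of H3-3B and H1-10 over the 6 libraries were sought among 11013 protein-coding genes, by the root mean square difference of log2 levels centred on each gene. SPTAN1 was nearest to H3-3B (0.0087), followed by RHPN2 (0.029) and MAPRE2 (0.032). TMEM161A was nearest to H1-10 (0.048), followed by ZNF581 (0.058) and DGCR6L (0.060). Likeness over 6 libraries in 3 groups says only that the levels moved alike here.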

How the data were processed

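Poly(A) RNA of 6 HT29 libraries was sequenced in paired ends from stranded libraries with molecular identifiers in the adapters. The authors ran STAR 2.7.10a against GRCh38 and htseq-count 2.0.5 on GENCODE 38 exons. They deposited counts divided by DESeq2 size factors, a signal that is never negative, in 1 table per depletion. The methods name protein-coding genes for the counting, but genes of other types, such as pseudogenes and antisense genes, are listed too. How the counting used identifiers, strand and reads of several places is not given in the sources used here. Dividing each deposited value by its library's step gave whole reads for 100% of values (tolerance 0.001 reads), with 46390819 to 64388876 reads per library. Of 60676 identifiers 60357 matched GENCODE 44.

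Tests used limma 3.58.1 in R 4.3.3 (trend, two-sided) on log2(normalized count + 1), a scale that understates the fold of low genes, after dropping genes with a mean under 10, with Benjamini-Hochberg adjustment over all genes tested and a threshold of 0.05. Depletions were tested against untreated cells within their table, and against each other on recovered reads of the 6 libraries with common size factors. The design foresaw normalized counts, and edgeR 4.0.16 and DESeq2 1.42.0 on recovered reads were alternatives, beside quantile normalization, a replicate block, a fit on more libraries, a limit on the fold change, other pseudocounts (0.5, 8), other limits on the mean (none, 50) and leaving out each library. Levels between genes are TPM over merged exonic length. The scripts were tested on simulated data.

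The members and gene lists were chosen with earlier results of these data known. Named beside the members were, per list, up to 2 genes per depletion with the largest change past the threshold whose higher group averaged 100 normalized counts or more, 16 genes fixed by name, and the 3 genes nearest to each of 2 members; not all are printed, and 1 item is not reported here. Sequences came from RefSeq (GRCh38.p14) for promoters, with all 9 members matched, and from GENCODE 44 for coding sequences.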

Additional observations from a re-analysis of the deposited data

Results flagged for a closer look

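H2AX and H3-3B moved in opposite directions in the 2 depletions, in both libraries of each. H2AX was higher than untreated in -H and lower in -W cells, and the direct log2 difference between -H and -W was 1.99. H3-3B was likewise higher in -H and lower in -W cells, with a direct log2 difference of 1.46. Both differences passed the threshold in limma and in its alternatives, edgeR and DESeq2 among them, over ranges of 1.90 to 2.04 and 1.29 to 1.48.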

How the results depend on the processing

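Of 375 values of the members under alternatives, 361 kept direction and side of the threshold, 8 lost the call, 2 gained it and 4 reversed. In -H against untreated, quantile normalization gave -0.22 for H3-3A (adjusted p = 7.47e-05) and -0.19 for MACROH2A1 (adjusted p = 0.000235), and 5 members lower. It also gave -0.089 for DEK and -0.17 for ATRX in -H, 0.0021 for ASF1A and -0.0094 for EP400 in -W, and -0.067 for UBN1 and 0.026 for MMS22L in -H against -W. The cause was not tested. It moved the median of all genes by under 0.1. Leaving out 1 library reversed 7 results. Over the libraries left out in turn, H2AZ2 ranged from -0.023 to 0.013 in -H (higher without untreated replicate 2), MACROH2A2 ranged from -0.12 to 0.66 in -W, SRCAP from -0.13 to 0.19 in -H, EP400 from -0.18 to 0.021 in -H and from -0.071 to 0.12 in -W, and between depletions OIP5 from -0.23 to 0.057 and CASP8AP2 from -0.038 to 0.098.

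With fold changes limited to 1 or more on the log2 scale in either direction, members higher and lower numbered 1 and 1 in -H, 0 and 2 in -W, and 3 and 0 between depletions. Without that limit, limma, edgeR and DESeq2 each called H2AJ higher in -W and H1-10 lower between depletions.

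With the longest transcript as length, the shares in untreated, -H and -W cells were 53.2%, 70.7% and 59.4% for H3-3B, 21.3%, 24.0% and 18.1% for H2AZ2, and 0.246%, 0.410% and 0.348% for MACROH2A2. With the canonical transcript, a choice made after seeing the data, they were 40.2%, 58.9% and 46.4% for H3-3B, 13.5%, 15.4% and 11.3% for H2AZ2, and 0.0865% and 0.144% for MACROH2A2 in untreated and -H cells. A change of length scales the ratio of a pair alike in every library, so that the order of the groups could not change. With the longest transcript, the -W libraries of MACROH2A2, at 0.443% and 0.253%, overlapped those of both other groups.

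The labels number the libraries in each group, and the deviations of same-numbered libraries correlated at 0.117 (-H with untreated), -0.0527 (-W with untreated) and -0.104 (-H with -W) over 12480 genes, so that the numbers were not taken to pair the samples. A replicate block left 4 members higher and 2 lower in -H, 1 and 7 in -W, and 7 and 1 between depletions, and over all genes gave 7311 higher and 7121 lower in -H against 7149 and 6981 without it. Crossed pairing of -H with -W, added after seeing the data, gave 7 members higher and 1 lower. Depth limits MACROH2A2 alone among the members, at 13 to 30 reads.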
